A study of Mus musculus with 25 samples.

Results

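Acyl-CoA synthetases join free fatty acids to coenzyme A, and 8 mouse genes that encode such enzymes or fatty acid transport proteins are described here in livers and hepatoblastomas (HBs). They are the long chain acyl-CoA synthetase genes Acsl1, Acsl3, Acsl4 and Acsl5 and the fatty acid transport protein (FATP) genes Slc27a1, Slc27a2, Slc27a3 and Slc27a4. They were chosen by name, and all 8 were found among the 36333 genes of the count table and passed the filter on low counts in every comparison. The 3 remaining genes of the 2 families in the table, Acsl6, Slc27a5 and Slc27a6, are given only beside them.

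The study asked how HBs and livers respond to a diet rich in dodecanedioic acid (DDDA), a dicarboxylic fatty acid that is formed from lauric acid by ω-oxidation and degraded in peroxisomes. RNA-Seq covered 4 groups of 5 FVB mice, namely DDDA HBs (4 females and 1 male), standard diet HBs (2 females and 3 males), DDDA livers (2 females and 3 males) and standard diet livers (3 females and 2 males). The HBs had been induced at an age of 6 to 7 weeks by injecting Sleeping Beauty vectors into the tail vein under hydrodynamic pressure, for Δ(90), a β-catenin with a deletion of 90 bases, and for YAP S127A, a mutant of the Hippo pathway effector, whereas the livers came from mice with no injection. The labels give DDDA as 10% of the diet for 3 to 4 weeks, and 5 HBs of mice kept on it for longer are not analysed here. HB pieces were taken where the tissue looked healthy and can still hold host cells. No group holds livers of injected mice, so injection, vectors and tumor cannot be told apart, and the labels give no age at tissue collection.

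A fatty acid has to be activated to its acyl-CoA before it can be oxidized in mitochondria or peroxisomes, built into triglycerides and phospholipids or elongated. Acsl1 is the main long chain synthetase of hepatocytes, Acsl5 is found at mitochondria and the endoplasmic reticulum, Acsl3 acts on forming lipid droplets, and Acsl4 prefers arachidonic acid and other polyunsaturated fatty acids. The FATPs encoded by the Slc27 genes combine uptake of fatty acids with activity towards very long chain fatty acids. FATP2 (Slc27a2) and FATP5 (Slc27a5) are the forms known from liver, FATP1 (Slc27a1) is best known from muscle and adipose tissue, FATP4 (Slc27a4) from intestine and skin, and FATP3 (Slc27a3) acts as an acyl-CoA synthetase.

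The promoter windows of the genes that differed between HBs and livers on both diets are shown because both transgene products act through transcription factors with short recognition motifs. Each window runs from 250 bases before to 50 bases after a RefSeq start (GRCm38.p6) and is printed 5′ to 3′ on the strand of the gene. All 8 genes matched, with 11 windows of 300 bases, and of the 5 genes only windows with at least 1 of 3 motifs are printed. Capitals mark TCAAAG, the core bound by TCF/LEF factors with β-catenin, GGAATG, the core bound by TEAD factors with YAP, and AGGTCA, the unit bound by nuclear receptors, on either strand.
Acsl1 (chr8:46470787-46471086, plus strand): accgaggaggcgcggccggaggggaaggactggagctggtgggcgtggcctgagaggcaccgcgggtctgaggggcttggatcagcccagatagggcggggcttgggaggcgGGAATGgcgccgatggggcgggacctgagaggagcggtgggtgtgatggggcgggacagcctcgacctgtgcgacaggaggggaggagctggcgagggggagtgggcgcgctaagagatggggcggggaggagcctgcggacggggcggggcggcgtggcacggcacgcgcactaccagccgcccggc
Acsl5 (chr19:55253119-55253418, plus strand): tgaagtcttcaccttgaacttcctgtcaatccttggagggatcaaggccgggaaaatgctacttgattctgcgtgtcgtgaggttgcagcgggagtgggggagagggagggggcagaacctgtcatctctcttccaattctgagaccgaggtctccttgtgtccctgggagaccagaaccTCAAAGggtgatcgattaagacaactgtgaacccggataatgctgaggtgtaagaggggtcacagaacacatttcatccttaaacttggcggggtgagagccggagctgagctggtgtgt
Slc27a2 (chr2:126552774-126553073, plus strand): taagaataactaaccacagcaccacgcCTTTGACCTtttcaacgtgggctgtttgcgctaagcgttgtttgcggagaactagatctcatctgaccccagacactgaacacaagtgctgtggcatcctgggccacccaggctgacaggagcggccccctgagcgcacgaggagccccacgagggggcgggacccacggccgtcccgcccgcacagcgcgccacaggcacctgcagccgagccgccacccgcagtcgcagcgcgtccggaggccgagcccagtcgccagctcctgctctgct
Slc27a1 window 2 (chr8:71569347-71569646, plus strand): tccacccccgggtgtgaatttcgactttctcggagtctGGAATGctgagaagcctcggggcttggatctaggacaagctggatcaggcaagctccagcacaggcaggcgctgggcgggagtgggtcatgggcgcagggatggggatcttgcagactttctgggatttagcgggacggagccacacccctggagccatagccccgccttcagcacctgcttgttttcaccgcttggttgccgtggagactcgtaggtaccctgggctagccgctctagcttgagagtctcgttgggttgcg
Slc27a1 window 3 (chr8:71570344-71570643, plus strand): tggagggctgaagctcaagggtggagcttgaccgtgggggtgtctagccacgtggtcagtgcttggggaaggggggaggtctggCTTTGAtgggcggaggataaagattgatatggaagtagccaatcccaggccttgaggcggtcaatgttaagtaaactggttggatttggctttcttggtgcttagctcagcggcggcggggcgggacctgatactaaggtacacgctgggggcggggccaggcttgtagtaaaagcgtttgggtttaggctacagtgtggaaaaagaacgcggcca
Slc27a3 (chr3:90389889-90390188, minus strand): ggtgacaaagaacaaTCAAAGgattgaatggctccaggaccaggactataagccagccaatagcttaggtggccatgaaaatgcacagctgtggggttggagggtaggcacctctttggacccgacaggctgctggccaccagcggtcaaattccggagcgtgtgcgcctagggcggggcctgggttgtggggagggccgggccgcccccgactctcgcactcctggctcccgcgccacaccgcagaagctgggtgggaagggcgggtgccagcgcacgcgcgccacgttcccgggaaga

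TCAAAG was present in 4 of the 11 windows (Acsl5, Slc27a1, Slc27a2 and Slc27a3), against 16.0% of 32851 mouse promoter windows of the same length. GGAATG was present in 2 of the 11 windows (Acsl1 and Slc27a1), against 14.7% of all windows. AGGTCA was present in the Slc27a2 window alone, against 16.3% of all windows, and there the reverse forms of AGGTCA and TCAAAG overlap. TCAAAG thus stood in windows of genes that were lower in HBs and of genes that were higher. These are descriptions of letters in the windows, and no binding was measured.

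The authors' counts summed to 18323912 to 29783324 per DDDA HB, 16818785 to 19308728 per standard diet HB, 18817404 to 23373175 per DDDA liver and 16548771 to 18348116 per standard diet liver. Headers of the count table place the standard diet libraries on a flow cell of their own, and name them, but not the DDDA libraries, as paired and trimmed, so diet, sequencing run and read handling cannot be told apart. Within the DDDA groups DL03, a liver, and DT3168, an HB, were read on another flow cell than the other 8 libraries, and HBs and livers of each diet were in different lanes. Without DL03 and DT3168, the calls of Acsl1, Acsl5, Slc27a1, Slc27a2 and Slc27a3 between HBs and livers on DDDA held. The library DT2264, a DDDA HB, stood apart. Its summed CPM (counts scaled to library size by TMM, the trimmed mean of M values, over all 20 libraries) was 12672 for 6 erythroid markers, against 174 to 5604 in the other DDDA HBs, and 3086 for 9 stellate cell and fibroblast markers, against 70.8 to 641. DT2277 came next in both. The library DL02, a DDDA liver, had 89.6 summed CPM of 7 neutrophil markers, against 1.22 to 5.44 in the other DDDA livers and 1.86 to 4.63 in standard diet livers. Its sum of 8 macrophage and Kupffer cell markers was 712, against 198 to 382 in the other DDDA livers, but standard diet livers had 283 to 682. Its hepatocyte marker sum was the lowest of the 10 livers. Results that rest on these libraries are given with and without them.

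Slc27a2 had the highest mean TPM (the authors' transcript level per gene length) of the 8 genes in all 4 groups. It averaged 442 ± 165 TPM in DDDA HBs, 363 ± 84.6 TPM in standard diet HBs, 1080.2 ± 102 TPM in DDDA livers and 789.9 ± 89.3 TPM in standard diet livers (SD, n = 5 each). Acsl5 and Acsl1 followed. In DDDA HBs Acsl5 averaged 193 ± 52.8 TPM and Acsl1 122 ± 49.6 TPM, with overlapping ranges. In standard diet HBs Acsl5 averaged 149.8 ± 41.1 TPM and Acsl1 108 ± 12.8 TPM, again with overlapping ranges. Within each library Acsl5 was above Acsl1 in every HB of both diets. In livers the order of the means was the other way round, with 257 ± 85.5 TPM of Acsl1 and 216 ± 18.0 TPM of Acsl5 in DDDA livers and 209 ± 23.0 TPM of Acsl1 and 182 ± 40.3 TPM of Acsl5 in standard diet livers, and the ranges overlapped on both diets. Acsl4, Slc27a4 and Acsl3 came next, and the TPM ranges of Acsl4 and Slc27a4 overlapped in standard diet HBs and in livers of both diets. Slc27a1 was at 16.0 ± 7.49 TPM in DDDA HBs, 22.2 ± 4.83 TPM in standard diet HBs, 3.26 ± 0.457 TPM in DDDA livers and 4.20 ± 1.39 TPM in standard diet livers. Slc27a3 was the lowest of the 8 in each group, at 5.01 ± 5.20 TPM in DDDA HBs and 0.578 ± 0.161 TPM in standard diet livers. Acsl6 and Slc27a6 had at most 14 and 9 counts in any library.

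**Figure D1:**
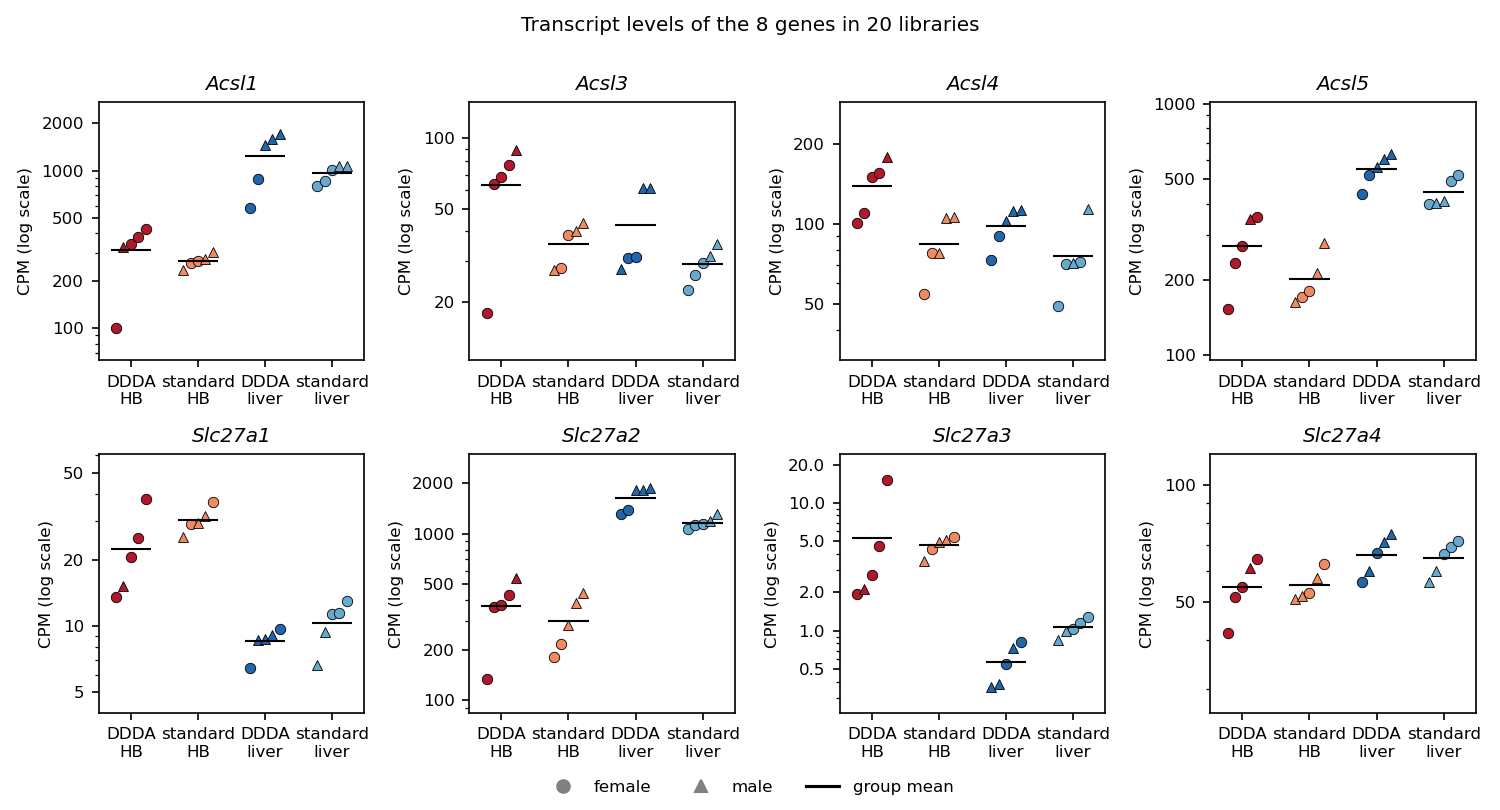
Level of each gene in CPM (log axis) in every library of the 4 groups, with circles for females, triangles for males and a line at the group mean. Acsl1, Acsl5 and Slc27a2 lie lower and Slc27a1 and Slc27a3 higher in all HBs than in all livers of the same diet, and 1 DDDA HB, at 15.0 CPM of Slc27a3, lies far above the other 4.

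Between HBs and livers, 5 of the 8 genes changed in the same direction on both diets. Acsl1, Acsl5 and Slc27a2, the most abundant of the 8, were lower in HBs, and Slc27a1 and Slc27a3, the least abundant in liver, were higher. On DDDA 3 of the 8 genes were lower, where 23.4% of the 13415 genes tested were called lower, and 3 were higher, against 26.3% of the genes tested. On the standard diet 3 of the 8 were lower, against 26.8% of the 13830 genes tested, and 2 were higher, against 28.2%. Counts of 2 or 3 among 8 genes lie near these backgrounds and are no result about the 8 genes as a set. Of the 14502 genes kept over the 20 libraries, 36.0% did not overlap between HBs and livers on DDDA and 41.0% on the standard diet. The comparisons share libraries, so the values on each diet are given side by side.

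Acsl1 had 340.3, 424, 328, 381 and 99.99 CPM in the DDDA HBs, against 879.7, 576, 1582, 1452 and 1697 CPM in the DDDA livers. In the standard diet HBs it had 233, 259, 269, 276 and 307 CPM, against 1062, 1007, 862, 1073 and 799 CPM in the standard diet livers. Every HB was below every liver of its diet, and the lowest value was that of DT2264. Acsl1 was 3.83-fold lower in HBs on DDDA (log2 fold change -1.94, 95% interval -2.85 to -1.02, adjusted p = 0.0031 by edgeR) and 3.56-fold lower on the standard diet (log2 fold change -1.83, interval -2.14 to -1.52, adjusted p = 1.9e-06). Without DT2264 it was 3.27-fold lower on DDDA. The 2 lowest DDDA livers, at 879.7 and 576 CPM, were the 2 females, and the 3 males had 1452 to 1697 CPM. The DDDA HBs were 4 females and 1 male, so the fold on DDDA pools the sexes in unequal numbers. The call held with sex as a covariate. In bulk tissue fewer cells of a type and less RNA per cell cannot be told apart. The summed CPM of 15 hepatocyte markers, none of them at 0 in a whole group, was 21562 to 53119.8 in DDDA HBs against 86993 to 163449 in DDDA livers, and 22235 to 41915 in standard diet HBs against 101228 to 146864 in standard diet livers, and its part in the results was not tested.

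Slc27a2, whose product takes up and activates long and very long chain fatty acids, had 363, 429.6, 544, 375 and 135 CPM in the DDDA HBs, against 1393, 1304, 1867, 1831 and 1822 CPM in the DDDA livers. It had 285, 181, 217, 440.0 and 383 CPM in the standard diet HBs, against 1303, 1119.8, 1063, 1186 and 1136 CPM in the standard diet livers. The groups did not overlap on either diet. Slc27a2 was 4.36-fold lower in HBs on DDDA (log2 fold change -2.12, SE 0.32, adjusted p = 0.00047) and 3.83-fold lower on the standard diet (log2 fold change -1.94, SE 0.24, adjusted p = 4.5e-05). Slc27a5, the other FATP of liver and a bile acid synthetase, was lower as well, by 6.63-fold on DDDA (adjusted p = 8.1e-05) and 5.70-fold on the standard diet (adjusted p = 0.00051).

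Acsl5 had 353, 232, 347, 272 and 153 CPM in the DDDA HBs, against 521, 439, 558, 634 and 601 CPM in the DDDA livers. It had 279.8, 170.4, 179.9, 163 and 212 CPM in the standard diet HBs, against 409, 491, 520.1, 405 and 400.2 CPM in the standard diet livers. The groups did not overlap in CPM, and Acsl5 was 1.98-fold lower in HBs on DDDA (adjusted p = 0.0045) and 2.20-fold lower on the standard diet (adjusted p = 0.00018). In TPM the Acsl5 ranges overlapped, with 115 to 251.5 TPM in DDDA HBs against 186 to 235 TPM in DDDA livers, and 101 to 215 TPM in standard diet HBs against 132 to 222 TPM in standard diet livers.

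Slc27a1, the FATP of muscle and fat, was higher in HBs. It had 20.7, 13.6, 15.2, 25.2 and 37.8 CPM in the DDDA HBs, against 6.44, 9.72, 8.71, 9.04 and 8.65 CPM in the DDDA livers. In the standard diet HBs it had 25.3, 36.9, 29.1, 29.4 and 31.6 CPM, against 9.42, 11.4, 12.9, 6.61 and 11.4 CPM in the standard diet livers. The groups did not overlap on either diet, and the highest value among the DDDA HBs was that of DT2264, which was the lowest of them for the other 7 genes. The rise was 2.70-fold on DDDA (log2 fold change 1.43, SE 0.28, adjusted p = 0.0017) and 2.95-fold on the standard diet (log2 fold change 1.56, SE 0.17, adjusted p = 2.3e-05). Without DT2264 it was 2.25-fold on DDDA (adjusted p = 0.0014). Markers of bile duct cells were also higher in HBs, with summed CPM of 7 cholangiocyte markers of 146 to 1636 in DDDA HBs against 49.9 to 63.5 in DDDA livers, and 299 to 896 in standard diet HBs against 48.1 to 57.4 in standard diet livers, and their part in the rise was not tested.

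Slc27a3 rested on few reads in liver, with 5 to 13 counts per DDDA liver and 10 to 21 per standard diet liver. It had 15.0, 4.61, 2.10, 2.75 and 1.95 CPM in the DDDA HBs, against 0.549, 0.810, 0.366, 0.380 and 0.727 CPM in the DDDA livers. It had 5.15, 5.43, 4.37, 4.97 and 3.53 CPM in the standard diet HBs, against 0.987, 1.15, 1.04, 0.847 and 1.29 CPM in the standard diet livers. Every HB was above every liver, and DT3167 was more than 3 times the next DDDA HB. The rise was 9.49-fold on DDDA (log2 fold change 3.25, interval 1.81 to 4.68, adjusted p = 0.0022) and 4.40-fold on the standard diet (log2 fold change 2.14, interval 1.67 to 2.60, adjusted p = 1.0e-05). Without DT3167 the rise on DDDA was 5.11-fold (adjusted p = 0.0015).

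Acsl4, the synthetase with a preference for polyunsaturated fatty acids, was called on DDDA and not on the standard diet, and the test of the difference, given with the diet responses, was not passed. It had 151, 155, 179, 109.6 and 101 CPM in the DDDA HBs, against 89.8, 73.3, 102, 111 and 113 CPM in the DDDA livers. The ranges overlapped, with 3 of 5 DDDA HBs above all DDDA livers. The rise was 1.45-fold (log2 fold change 0.54, interval 0.15 to 0.92, adjusted p = 0.027), and the call was lost without DL01, DT3167, DT3168 or DT2270 (adjusted p up to 0.063, and without DL01 just above the threshold) and without DL03 and DT3168 together (adjusted p = 0.092). On the standard diet it had 105, 54.7, 77.7, 77.9 and 106 CPM in HBs, against 71.3, 72.0, 49.4, 114 and 70.9 CPM in livers. Those groups overlapped widely, and the log2 fold change was 0.17 (interval -0.34 to 0.67, adjusted p = 0.56).

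Acsl3, the synthetase of lipid droplets, did not pass on either diet. In DDDA HBs it had 76.6, 63.7, 89.2, 68.5 and 18.0 CPM, against 30.9, 31.2, 27.7, 61.2 and 61.3 CPM in DDDA livers. The DDDA HBs other than DT2264 were above all DDDA livers, and DT2264 was below all of them. The log2 fold change was 0.61 (interval -0.26 to 1.47, adjusted p = 0.22), and 0.85 without DT2264 (adjusted p = 0.022). On the standard diet Acsl3 had 27.3 to 43.6 CPM in HBs against 22.6 to 35.4 CPM in livers, with a log2 fold change of 0.30 (interval -0.055 to 0.66, adjusted p = 0.14).

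Slc27a4 did not pass either. It had 41.7 to 64.6 CPM in DDDA HBs against 56.4 to 74.9 CPM in DDDA livers, and 51.0 to 62.9 CPM in standard diet HBs against 56.5 to 71.9 CPM in standard diet livers. Its log2 fold change was -0.24 on DDDA (interval -0.53 to 0.052, adjusted p = 0.15) and -0.22 on the standard diet (interval -0.45 to 0.00054, adjusted p = 0.084). On the standard diet it passed without c1 or without s1799 (adjusted p = 0.048 each).

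**Figure D2:**
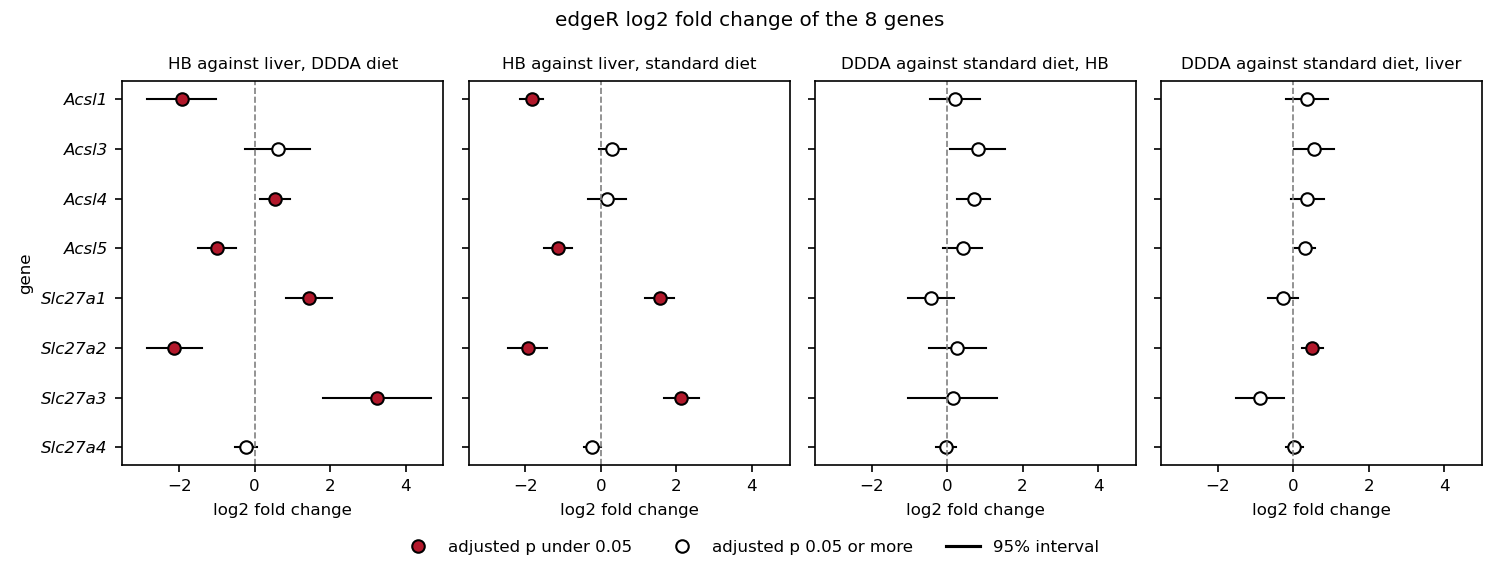
edgeR log2 fold change (x axis) of each gene in 4 comparisons, with 95% intervals and filled points where the adjusted p was under 0.05. Acsl1, Acsl5 and Slc27a2 lie left of 0 and Slc27a1 and Slc27a3 right of 0 in HB against liver on both diets, and between diets the only filled point is Slc27a2 in liver, at 0.50.

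These directions are relative to the bulk of genes, which TMM sets close to no change. With counts scaled to the library total, the median log2 fold change of all genes was 0.73 on DDDA and 0.70 on the standard diet, and with TMM it was 0.083 on DDDA and 0.020 on the standard diet. The split of calls was then 7966 higher and 1152 lower on DDDA and 8776 higher and 1299 lower on the standard diet, and with TMM 3529 and 3144 on DDDA and 3896 and 3703 on the standard diet. Under that scaling Slc27a4 was higher in HBs, by 1.33-fold on DDDA (adjusted p = 0.0048) and 1.37-fold on the standard diet (adjusted p = 0.016). Acsl3 was then 2.37-fold higher on DDDA (adjusted p = 0.010) and 1.999-fold on the standard diet (adjusted p = 0.00028). Acsl4 was 2.26-fold higher on DDDA (adjusted p = 8.0e-05) and 1.82-fold on the standard diet (adjusted p = 0.0025). Acsl5 was no longer called on DDDA (log2 fold change -0.35, adjusted p = 0.12). Acsl1 and Slc27a2 were called lower, and Slc27a1 and Slc27a3 higher, under both scalings on both diets.

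**Figure D3:**
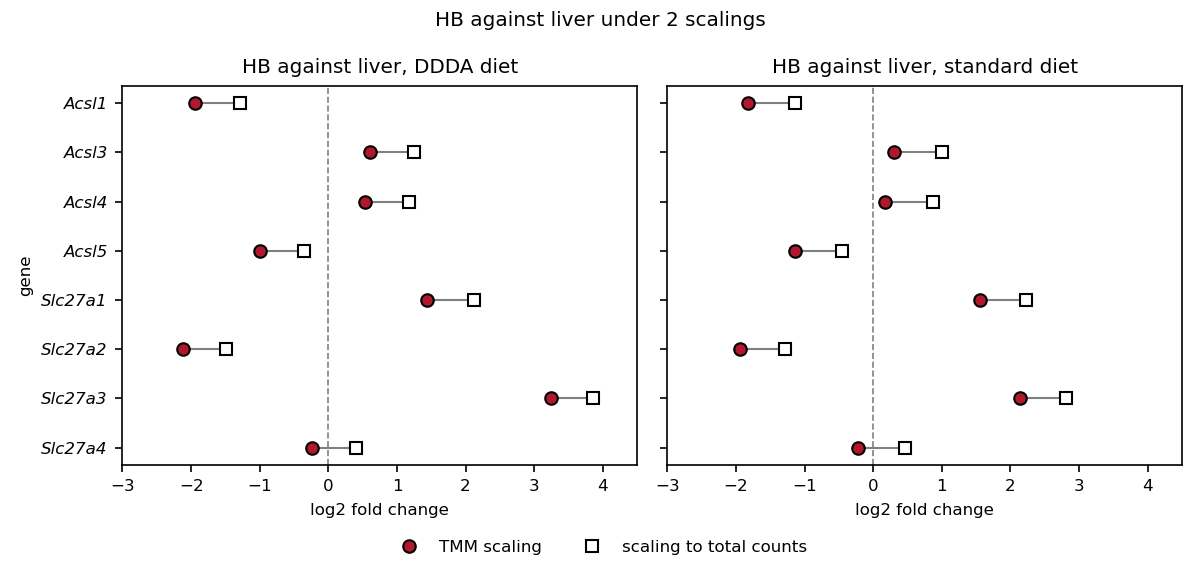
Log2 fold change of HB against liver (x axis) for each gene with TMM scaling (circles) and with scaling to total counts (squares). The squares lie to the right of the circles for all 8 genes, and for Slc27a4 they lie on opposite sides of 0, at 0.41 against -0.24 on DDDA and 0.46 against -0.22 on the standard diet.

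Within a family the shares of summed TPM do not depend on the scaling between libraries. Acsl1 made up 27.5 ± 7.19% of the summed Acsl TPM in DDDA HBs against 48.7 ± 8.08% in DDDA livers, and 33.6 ± 5.55% in standard diet HBs against 49.6 ± 3.79% in standard diet livers (SD, n = 5 each). The ranges did not overlap on either diet, with the highest DDDA HB at 36.3% and the lowest DDDA liver at 37.5%. Acsl4 made up 16.97 ± 4.33% in DDDA HBs against 5.27 ± 0.643% in DDDA livers, and 13.2 ± 1.86% in standard diet HBs against 5.04 ± 1.47% in standard diet livers. Acsl3 made up 9.80 ± 2.25% in DDDA HBs against 3.15 ± 0.863% in DDDA livers, and 7.87 ± 0.870% in standard diet HBs against 2.73 ± 0.503% in standard diet livers. For Acsl3 and Acsl4 every HB lay above every liver of its diet. Acsl5 held 45.7 ± 5.83% in DDDA HBs and 42.9 ± 7.16% in DDDA livers, and 45.3 ± 4.82% in standard diet HBs and 42.6 ± 5.19% in standard diet livers, with overlapping ranges.

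Among the Slc27 genes Slc27a2 held the largest mean share in every group, at 63.1 ± 6.21% in DDDA HBs against 60.04 ± 1.69% in DDDA livers, and 57.4 ± 4.42% in standard diet HBs against 51.6 ± 4.77% in standard diet livers. Slc27a1 held 3.14 ± 3.24% in DDDA HBs against 0.183 ± 0.0369% in DDDA livers, and 3.89 ± 1.99% in standard diet HBs against 0.266 ± 0.0599% in standard diet livers. Its share in DT2264, 8.84%, was the highest of the 20 libraries. Slc27a4 held 6.07 ± 2.17% in DDDA HBs against 1.40 ± 0.196% in DDDA livers, and 7.02 ± 3.37% in standard diet HBs against 1.65 ± 0.182% in standard diet livers. Slc27a5 made up most of the rest. These shares are descriptions without a test, since the genes of a family share a total.

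**Figure D4:**
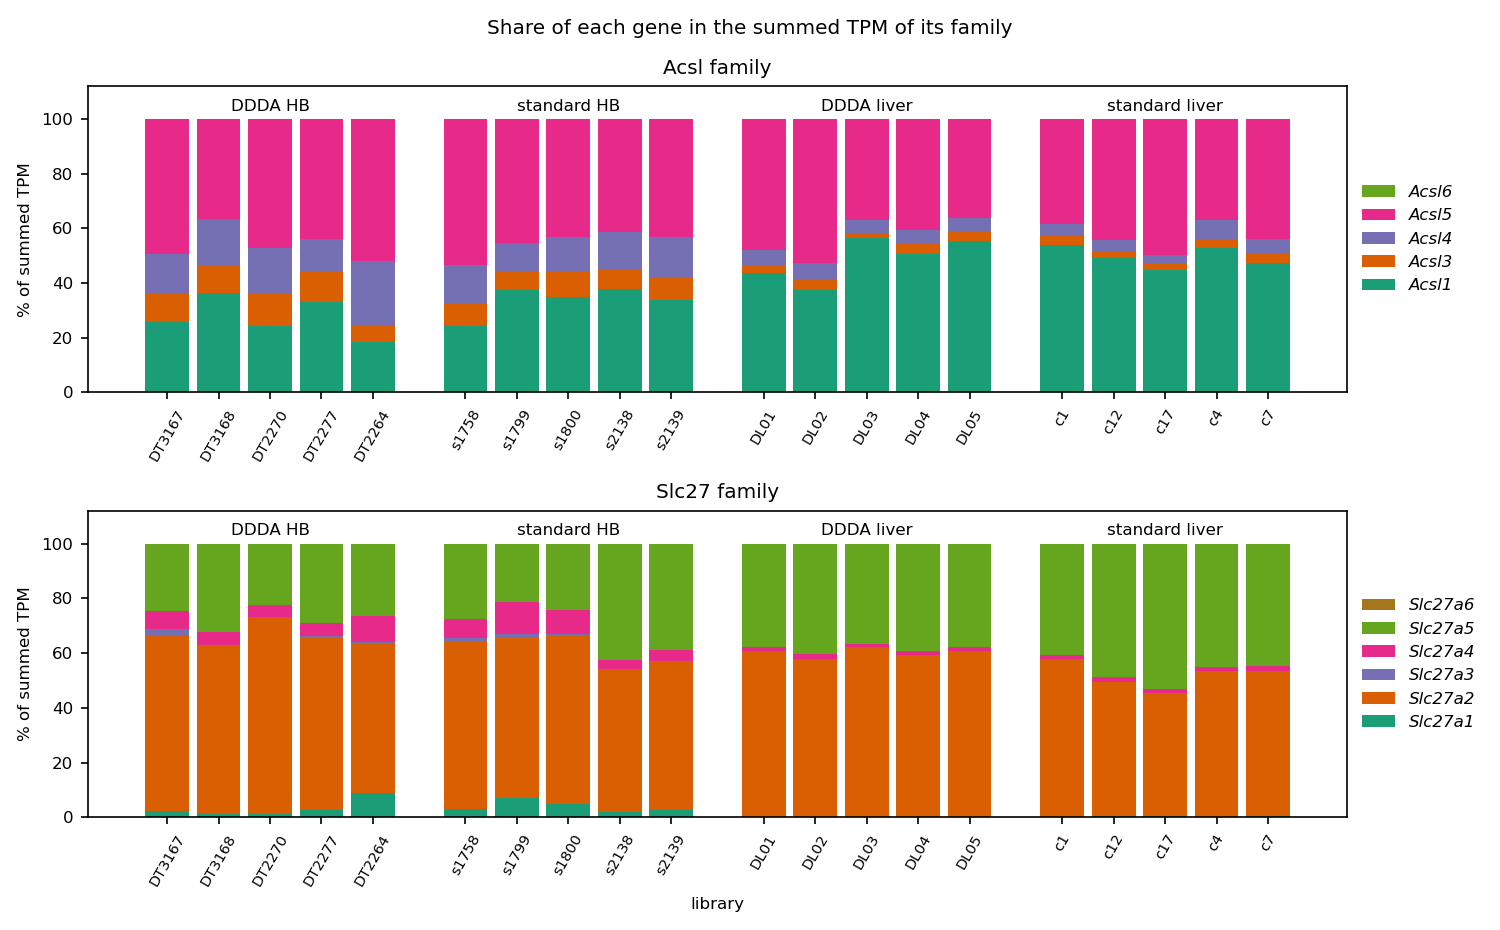
Share of each gene in the summed TPM of its family (y axis, percent) in each of the 20 libraries, Acsl genes above and Slc27 genes below. In HBs the Acsl1 part is smaller and the Acsl3 and Acsl4 parts are larger than in livers, and Slc27a2 with Slc27a5 fill most of each Slc27 bar.

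The genes around these 8 in fatty acid activation and use were counted from lists of genes. Over all genes tested, 23.4% were called lower and 26.3% higher in HBs on DDDA. On the standard diet 26.8% were called lower and 28.2% higher. Counts near these shares are no result about a list. With total counts most calls over all genes were higher, as given above. Of 11 short and medium chain acyl-CoA synthetases tested, 7 were lower and 1 was higher in HBs on DDDA, and 9 were lower and 1 was higher on the standard diet, with median log2 fold changes of -1.45 on DDDA and -1.75 on the standard diet. With total counts 5 were lower on DDDA and 8 on the standard diet. Acsm1, a medium chain synthetase of mitochondria, was 6.38-fold lower on DDDA (adjusted p = 0.00019) and 4.82-fold lower on the standard diet (adjusted p = 1.9e-05). Of the genes that use acyl-CoA in glycerolipid synthesis, 4 were lower and 5 higher of 15 tested on DDDA, and 8 were lower and 2 higher of 14 on the standard diet. With total counts 3 were lower and 5 higher on DDDA and 2 were lower and 4 higher on the standard diet. Dgat2, the last step of triglyceride synthesis, averaged 276 ± 102 CPM in DDDA HBs against 835 ± 140.4 CPM in DDDA livers (adjusted p = 0.0013), and 321 ± 83.3 CPM in standard diet HBs against 1003 ± 73.8 CPM in standard diet livers (adjusted p = 2.2e-05).

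Of 7 genes for phospholipid remodelling, 2 were lower and 3 higher on DDDA and 1 was lower and 3 higher on the standard diet, and with total counts 5 were higher on each diet. Mboat1, a lysophospholipid acyltransferase, averaged 7.95 ± 6.58 CPM in DDDA HBs against 0.231 ± 0.123 CPM in DDDA livers (adjusted p = 0.00034), and 13.5 ± 6.99 CPM in standard diet HBs against 0.351 ± 0.117 CPM in standard diet livers (adjusted p = 3.3e-06). Of 7 fatty acid uptake and binding genes, 3 were lower and 2 higher on DDDA, and 3 were lower and 4 higher on the standard diet. Fabp1, the fatty acid binding protein of liver, was 9.39-fold lower on DDDA (adjusted p = 0.00036), and Cav1, caveolin-1, was 10.9-fold higher (adjusted p = 6.8e-05). Of 5 acyl-CoA binding protein genes tested, 2 were lower and 1 was higher on each diet, and with total counts 1 was lower on each diet, with 2 higher on DDDA and 3 on the standard diet. Of 13 PPAR receptors and target genes, 4 were lower and 3 higher on DDDA and 4 were lower and 4 higher on the standard diet, and with total counts 5 were higher on DDDA and 9 on the standard diet. The counts of these lists stand against the same shares over all genes, and those near them are no result about a list. Gpat3 and Plin2, both on these lists, are not analysed here.

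Between HBs of the 2 diets none of the 8 genes passed by edgeR, where 14 of 14082 genes (0.0994%) were higher and 28 (0.199%) lower on DDDA. At an unadjusted p under 0.05 there were 2, Acsl3 and Acsl4, and DESeq2 called 1, Acsl4. Acsl4 averaged 139 ± 32.8 CPM in DDDA HBs against 84.3 ± 21.6 CPM in standard diet HBs, and 4 of 5 DDDA HBs were above all standard diet HBs. Its log2 fold change was 0.71 (interval 0.26 to 1.15, adjusted p = 0.15, DESeq2 adjusted p = 0.044), and an exact permutation test gave an unadjusted two-sided p = 0.032. By edgeR it was called in 0 of 10 fits that left out 1 HB each (adjusted p = 0.083 to 0.32). Acsl3 averaged 63.2 ± 27.1 CPM in DDDA HBs against 35.5 ± 7.46 CPM in standard diet HBs, and 4 of 5 DDDA HBs were above all standard diet HBs while DT2264 was below all. Its log2 fold change was 0.81 (interval 0.071 to 1.54, adjusted p = 0.27), 1.04 without DT2264 (adjusted p = 0.034) and 1.07 without DT2264 and DT2277 (adjusted p = 0.038). For Acsl3 the exact permutation test gave an unadjusted two-sided p = 0.15. Of 10 fits that left out 1 HB each, only the 1 without DT2264, its lowest library, called it. The log2 fold changes of the other 6 genes lay between -0.43 for Slc27a1 and 0.42 for Acsl5 (adjusted p = 0.40 to 0.93). The interval of Slc27a2 was -0.48 to 1.03 and that of Acsl1 was -0.46 to 0.87. Of the 7 uptake and binding genes 1 rose, Cd36, a fatty acid translocase, to 205 ± 55.5 CPM in DDDA HBs against 60.4 ± 16.5 CPM in standard diet HBs (3.34-fold, adjusted p = 0.014), and that call was lost without s1758, s1799, s2138 or s2139.

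In livers 1 of the 8 genes passed, Slc27a2, where 547 of 12803 genes (4.27%) were higher and 393 (3.07%) lower on DDDA. All 5 DDDA livers, at 1304 to 1867 CPM, were above all 5 standard diet livers, at 1063 to 1303 CPM, and the nearest values of the groups almost touched. The rise was 1.42-fold (log2 fold change 0.50, interval 0.22 to 0.78, adjusted p = 0.039), and the exact permutation test gave an unadjusted p = 0.0079, the smallest that 5 against 5 can give. The call was kept in 3 of 10 fits that left out 1 liver each and lost without c12, c17, c4, c7, DL03, DL04 or DL05 (adjusted p = 0.077 to 0.12). It was also lost with the 20 libraries in 1 fit (adjusted p = 0.38) and with total counts (adjusted p = 0.066), and DESeq2 gave an adjusted p of 0.0022. The 3 DDDA males, at 1867, 1831 and 1822 CPM, were above the 2 DDDA females, and a fit with a term for sex gave a log2 fold change of 0.43 (adjusted p = 0.016).

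Slc27a3 lay at 0.366 to 0.810 CPM in DDDA livers, below the 0.847 to 1.29 CPM of the standard diet livers, but it did not pass (log2 fold change -0.89, interval -1.53 to -0.25, adjusted p = 0.087) and rests on 5 to 21 counts per liver. Of the 14502 genes kept over the 20 libraries, 8.32% had groups that did not overlap between these livers. Acsl5 averaged 551 ± 75.8 CPM in DDDA livers against 445 ± 56.3 CPM in standard diet livers, and its log2 fold change of 0.31 did not pass (interval 0.053 to 0.57, adjusted p = 0.13). Acsl3 was at 61.2 and 61.3 CPM in DL04 and DL05, against 22.6 to 35.4 CPM in standard diet livers (log2 fold change 0.55, adjusted p = 0.19). Of 13 PPAR receptors and target genes 4 rose and 0 fell in DDDA livers by edgeR, with a median log2 fold change of 0.50 over the list against 0.0025 over all genes. Fgf21, a hormone induced by PPARα in liver, averaged 4.60 ± 2.83 CPM in DDDA livers against 0.417 ± 0.141 CPM in standard diet livers (adjusted p = 0.0059), and its call was kept in all 10 fits that left out 1 liver. With total counts 1 of the list was called, and likewise without DL03.

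Acsl1 in the livers is given by sex, where the value in females turned on the library DL02. The 3 male DDDA livers had 1582, 1452 and 1697 CPM, against 1062 and 1073 CPM in the 2 male standard diet livers. The 2 female DDDA livers had 879.7 and 576 CPM, against 1007, 862 and 799 CPM in the 3 female standard diet livers. The male groups did not overlap and the female groups did, but nothing is drawn from that with 2 or 3 livers per group. The share of all genes without overlap was not counted within each sex. The log2 fold change was 0.53 (SE 0.18) in males and -0.25 (SE 0.18) in females. Without DL02 the value in females was 0.0094, and without DL01 it was -0.58. The part of the neutrophil markers, high in DL02, was not tested. Nor was that of the macrophage markers, at 712 summed CPM in DL02 and 682, 642 and 454 in the female standard diet livers c7, c17 and c12. The difference of males minus females was 0.53 without DL02 and 1.12 without DL01. With all 10 livers the difference of 0.78 (SE 0.25) had an adjusted p of 0.22 in edgeR, in a test added once the levels were known. None of the 8 genes passed this test of sex by diet, in which 9 of 12803 genes (0.0703%) were called and 1939 had an unadjusted p under 0.05. Without DL01 the female DDDA livers were DL02 alone, and without DL02 they were DL01 alone. Without c1 or c4 a single male standard diet liver was left. Such fits can give an effect size only, so no call is drawn from them.

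**Figure D5:**
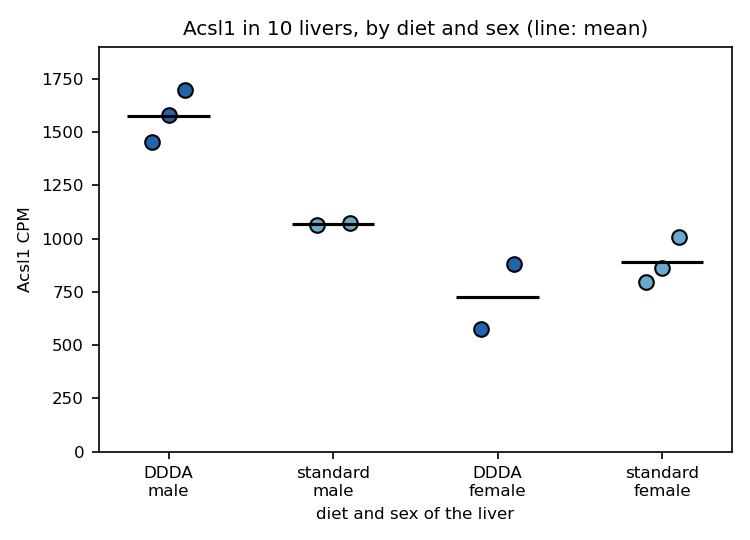
Acsl1 in CPM (y axis from 0) in the 10 livers, split by sex and diet, with each point a liver and a line at the mean. The male DDDA livers lie above the male standard diet livers, at 1062 and 1073 CPM, while the female DDDA livers, at 576 and 879.7 CPM, overlap the female standard diet livers. Each set holds only 2 or 3 livers, so nothing is drawn from overlap or its lack.

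Whether the diet acted differently on HBs and livers was tested as the diet response of HBs minus that of livers. Of 14502 genes 0 were called higher and 0 lower by edgeR (0% in each direction), with 877 at an unadjusted p under 0.05, and DESeq2 called 8 higher and 4 lower. None of the 8 genes was called by either tool, and none had an unadjusted p under 0.05 by edgeR. The differences ran between -0.21 for Slc27a2 (interval -1.04 to 0.63) and 1.08 for Slc27a3 (interval -0.29 to 2.44), and that of Slc27a3 was 0.19 without DT3167. Acsl4 had a difference of 0.35 (interval -0.30 to 0.99, adjusted p = 0.90) and Acsl1 had -0.14 (interval -1.04 to 0.77, adjusted p = 0.97).

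The genes whose log2 CPM ran most like that of each gene over the 20 libraries were taken among 14502 genes, as a description in which the tissue difference and library quality are shared by all points. For Slc27a2 they were Abhd3, Baat and Pex13 (Pearson r = 0.99), for Acsl1 Sgk2, Aldh5a1 and Cat (r = 0.98) and for Acsl5 Idh1, Got2 and Mrps5 (r = 0.96 to 0.97). Baat conjugates bile acids, Pex13 belongs to the peroxisomal import machinery, and Cat is the peroxisomal catalase. For Slc27a3 they were Eme1, Neil3 and Ncapd2 (r = 0.95), of which Eme1 and Neil3 act in DNA repair and Ncapd2 in chromosome condensation. For Slc27a1 they were Plcd3, Dtx3 and Trim35 (r = 0.95 to 0.96). The nearest genes were Hmgcs1, Cib3 and Dnajb4 for Acsl3 (r = 0.83 to 0.86), Eif2s1, Cask and Cpne3 for Acsl4 (r = 0.85 to 0.86) and Commd9, Agpat2 and Pnkd for Slc27a4 (r = 0.87 to 0.88).

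As the count table places them in GRCm38.p6, Acsl1 lies at chr8:46471037-46536051, Slc27a1 at chr8:71568873-71587304, Acsl3 at chr1:78657825-78707743, Acsl4 at chrX:142317993-142390800, Acsl5 at chr19:55251884-55296628, Slc27a2 at chr2:126553024-126588243, Slc27a4 at chr2:29802680-29817522 and Slc27a3 at chr3:90385233-90390045. Counts cover the whole gene, so transcripts from different starts of a gene, such as those of Acsl1 and Slc27a1, are not told apart. The Acsl5 window lies inside the gene as counted, and no window at the first base of that gene was examined.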

How the data were processed

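Poly(A) RNA of 20 tissue pieces had been sequenced from directional libraries. The table that the authors deposited (build GRCm38.p6 in the submitters' processing notes, alignment settings not given in the sources used here) holds raw gene counts without scaling, and RPKM and TPM values that the authors scaled by exon length and library size. Their 20 CPM columns, and comparison columns with fold changes, p-values, FDR, Bonferroni values and maximal group means, were left out.

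The main test was the quasi-likelihood test of edgeR 4.0.16 in R 4.3.3 (limma 3.58.1) with filterByExpr and TMM, fitted on the groups compared, with Benjamini-Hochberg adjustment over all kept genes and a threshold of 0.05. The script was tested on simulated data. Exact permutation tests took log2(CPM + 0.5). Alternatives were DESeq2 1.42.0, RLE size factors, no filter beyond 1 count, sex as a covariate, removal of a length trend (lowess span 0.3, prior count 2), a joint fit of 20 libraries, RPKM for TPM and each library left out. Total-count scaling, leaving out DT2264 with DT2277 (marker levels) or DL03 with DT3168 (flow cell), and sex by diet were added with the data in view. Promoters came from RefSeq (GRCm38.p6). Tables and plots used Python 3.11.15, pandas 2.3.3, numpy 2.4.6, scipy 1.17.1 and matplotlib 3.10.9.

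The 8 genes and the lists were chosen with earlier results of these data known. All 8 are named throughout, and from each other list at most 3 called genes with the smallest p, and some list genes are not reported here. The labels number single mice, so the p-values set a difference between groups against the spread between these mice only. Between diets that difference also holds flow cell and read handling, and between HBs and livers it also holds lane.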

Additional observations from a re-analysis of the deposited data

Results flagged for a closer look

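Over the 8 genes and 4 groups, 32 sets of 5 libraries were examined for a library far from the others, and 1 stood out by Dixon's criterion. Chance alone meets it in about 1 of 20 such sets if values are normally distributed. It was applied to CPM and not to log values, so a flag can also reflect skewed levels. Slc27a3 had 15.0 CPM in DT3167, a DDDA HB from a female, whereas the other 4 DDDA HBs had 1.95 to 4.61 CPM. The same library had 74.8 summed CPM of stellate cell and fibroblast markers, against 70.8 to 641 in the DDDA HBs other than DT2264, and 174 of erythroid markers, the lowest of the 5. The part of either in the Slc27a3 level was not tested.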

How the results depend on the processing

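The directions and calls of Acsl1, Slc27a1, Slc27a2 and Slc27a3 between HBs and livers held on both diets under all alternatives run. Scaling to total counts raised the number of the 8 genes called higher in HBs to 5 on each diet. Between HBs of the 2 diets 1 gene was called higher with DESeq2 (Acsl4) and 1 without DT2264 and DT2277 (Acsl3), and leaving out each library in turn gave 0 to 1. In livers 0 genes were called higher by edgeR with every gene of at least 1 count, total counts, 20 libraries in 1 fit or without DL03 and DT3168, and leaving out each liver gave 0 to 1 (4 had an unadjusted p under 0.05 in the reported test, and DESeq2 called 1). Signs turned for the following log2 values, none of them called except Slc27a4 between HBs and livers with total counts (0.46 on the standard diet and 0.41 on DDDA). Slc27a4 between livers was -0.075 with total counts, -0.00047 with the length trend removed and -0.034 to 0.085 on leaving out each library. Between HBs Slc27a4 was 0.085 without DT2264 and DT2277 and -0.087 to 0.040 on leaving out each library, and Slc27a3 -0.20 with sex as a covariate and -0.72 to 0.37 on leaving out each library. In the difference of diet responses, leaving out each library gave -0.11 to 0.050 for Slc27a4, -0.38 to 0.014 for Slc27a2 and -0.31 to 0.10 for Acsl1. There, without DT2264 and DT2277, the values were 0.10, 0.070 and 0.087, and with sex as a covariate 0.17 for Slc27a2 and 0.14 for Acsl1. The causes were not tested. Over all genes, calls between HBs of the 2 diets came to 328 higher and 356 lower with DESeq2, and calls between livers to 911 and 747. With 20 libraries in 1 fit they came to 367 and 313 between HBs and 209 and 130 between livers. No paired analysis was run, because the labels give no pairing and the groups share no numbers. Family shares were the same from RPKM, as they must be, since within a library TPM and RPKM differ by a common factor. That alternative was therefore no check of the shares. The 5 libraries per group and the low counts of Slc27a3 in liver limit what can be told apart.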
